A study of Mus musculus with 2 samples.

Results

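The genes described here are 8 genes of antigen presentation on MHC class II, measured in single intestinal innate lymphoid cells (ILCs). They are a list by name: Cd74, H2-Aa, H2-Ab1, H2-Eb1, H2-DMa, H2-DMb1, H2-DMb2 and Ciita. All 8 had a row in the table of 17238 genes that the authors deposited for the cells they chose. The small intestine group was sorted IL7ra+ ILCs from the small intestine of fed C57BL/6 mice aged 8 weeks. The colon group was the same sorted population from the colon of fed mice of that strain and age. Each group was 1 library, made from a pool of 8 mice with the 10x Chromium 3′ v2 kit, which counts unique molecular identifiers (UMIs) near the 3′ end of each transcript. With 1 library per tissue there was no replicate and no test, and every interval below is a 95% interval for counting error only.

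MHC class II molecules are pairs of an alpha and a beta chain that show peptides from endosomes to CD4+ T cells. H2-Aa and H2-Ab1 encode the 2 chains of I-A, and H2-Eb1 encodes the beta chain of I-E, whose alpha chain C57BL/6 mice do not make. Cd74 (chr18:60803848-60812652 on mm10) encodes the invariant chain, which holds the groove of new class II molecules until they reach the endosome. H2-DMa pairs with H2-DMb1 or H2-DMb2 in H2-DM, which exchanges the last piece of the invariant chain for peptides. Ciita (chr16:10480059-10528418) encodes the class II transactivator, the coactivator that switches on the others. In the gut, ILC3s of the lymphoid tissue inducer (LTi) type are known to carry class II.

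The small intestine library gave 5490 cells with a median of 2579 UMIs and the colon library 7549 cells with a median of 2600 UMIs. Cells were clustered with the class II genes kept out, and clusters were named "-like" from marker genes. The T cell-like cluster held 258 small intestine cells and 1164 colon cells, although the sort was for ILCs, and 13 and 19 cells were plasma cell-like. An unnamed cluster (cluster 10, 147 and 129 cells) also carried T cell RNA, as given below. Libraries shared 60 cell barcodes, against 56.2 given by chance. Of 16 defining markers of B cells, dendritic cells and macrophages, 8 had a UMI in the small intestine cells and 9 in the colon cells, at a summed level of 4.84 and 4.03 counts per 1000000 UMIs (CPM). Pax5, Clec9a, Siglech, Cd209a, Ccl22 and Csf1r were at 0 in both libraries.

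Summed over all cells, the class II genes were at nearly the same level in both tissues, apart from Ciita. The invariant chain gene Cd74 stood at 383 CPM in the small intestine (5779 UMIs, interval 373 to 393 CPM) and 374 CPM in the colon (8351 UMIs, 366 to 382 CPM). Of the I-A chains, H2-Aa was at 106 CPM in the small intestine, against 118 CPM in the colon, a ratio of 0.899 (0.844 to 0.957). H2-Ab1 was at 74.7 CPM in the small intestine, against 73.5 CPM in the colon, a ratio of 1.02 (0.942 to 1.10). The I-E beta chain H2-Eb1 was at 49.5 CPM in the small intestine, against 56.8 CPM in the colon, a ratio of 0.871 (0.794 to 0.954). H2-Aa and H2-Eb1 were thus slightly lower in the small intestine by UMI totals, but with every cell thinned to 1000 UMIs both turned round, to log2 ratios of 0.36 and 0.17. The H2-DM genes had ratios whose intervals held 1: H2-DMa was at 20.1 CPM in the small intestine, against 19.5 CPM in the colon, H2-DMb1 at 3.45 and 3.27 CPM, and H2-DMb2 at 1.33 and 1.57 CPM. H2-DMb1 and H2-DMb2 are near-identical neighbours, so how the authors' counting divided reads between them is uncertain.

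Ciita was the exception, with 80 UMIs or 5.31 CPM in the small intestine (4.21 to 6.60 CPM) and 46 UMIs or 2.06 CPM in the colon (1.51 to 2.75 CPM), a ratio of 2.58 (1.77 to 3.79). It was the 1 member of 8 to pass 2-fold towards the small intestine, where 8.92% of the 11962 genes with at least 20 UMIs were past the same fold, and 0 members were at least 2-fold lower, against 5.42% of genes. The median log2 ratio of the members was 0.03, while that of all genes tested was 0.20. Relative to the median gene the members other than Ciita therefore lay a little towards the colon. The sum of Cd74, H2-Aa, H2-Ab1 and H2-Eb1, called summed class II below, was at 613 CPM in the small intestine (601 to 626) and 622 CPM in the colon (612 to 632), a ratio of 0.986 (0.960 to 1.01). The direction of that ratio depended on the scaling. Its log2 value was -0.02 by UMI totals, 0.37 with cells thinned to 1000 UMIs and -0.22 with a median-ratio size factor.

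**Figure D1:**
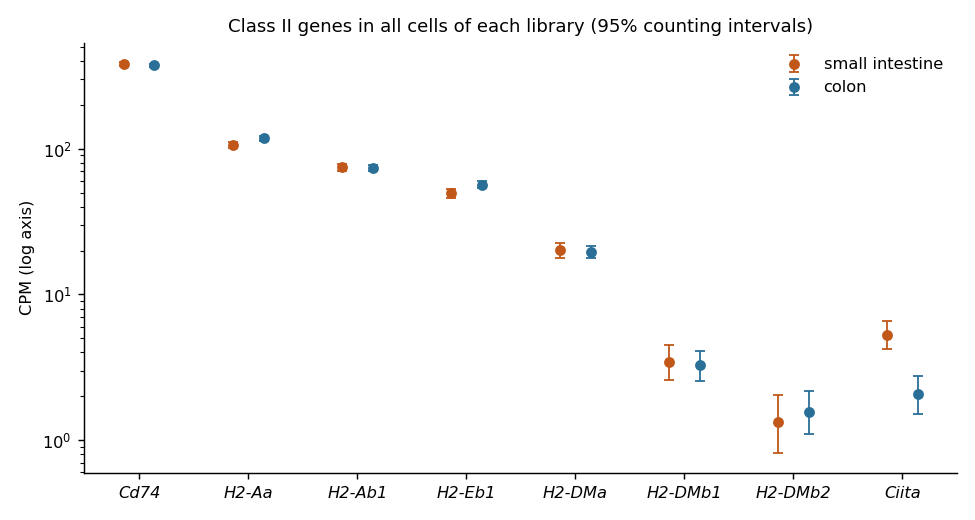
CPM (log axis) of the 8 class II genes over all cells of the small intestine library (orange, left of each pair) and the colon library (blue), with 95% counting intervals. Pairs of points nearly coincide for 7 genes, while Ciita is at 5.31 in the small intestine, against 2.06 in the colon.

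The other 6 genes lie close together. On mm10 with GENCODE vM21, H2-DMa spans chr17:34119541-34139101, H2-DMb2 chr17:34143307-34151555, H2-DMb1 chr17:34153072-34160230, H2-Ab1 chr17:34257689-34269419 and H2-Eb1 chr17:34305867-34316674, all on the plus strand. H2-Aa spans chr17:34282744-34287823 on the minus strand. RefSeq promoters (build GRCm38.p6, the same assembly as mm10) were matched for 5 members: H2-Aa, H2-Eb1, H2-DMa, H2-DMb1 and H2-DMb2. Class II promoters are known for an upstream module of X1, X2 and Y boxes, bound by RFX, CREB and NF-Y, to which the class II transactivator docks. The 150 bases before the start are shown for the 2 chain genes and for the 2 near-identical H2-DM beta genes, because class II genes are known to share this module. Capitals mark the letters that matched a motif on either strand.
H2-Aa (chr17:34287824-34287973, minus strand): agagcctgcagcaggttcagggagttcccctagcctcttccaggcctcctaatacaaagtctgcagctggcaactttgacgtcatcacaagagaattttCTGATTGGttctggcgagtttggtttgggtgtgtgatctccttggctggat
H2-Eb1 (chr17:34305717-34305866, plus strand): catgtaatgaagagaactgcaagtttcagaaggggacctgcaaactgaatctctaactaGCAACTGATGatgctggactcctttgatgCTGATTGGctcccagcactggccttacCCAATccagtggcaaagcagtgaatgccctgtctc
H2-DMb1 (chr17:34153041-34153190, plus strand): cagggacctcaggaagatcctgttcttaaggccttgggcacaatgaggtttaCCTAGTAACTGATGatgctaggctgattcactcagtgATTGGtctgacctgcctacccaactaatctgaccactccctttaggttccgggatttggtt
H2-DMb2 (chr17:34145099-34145248, plus strand): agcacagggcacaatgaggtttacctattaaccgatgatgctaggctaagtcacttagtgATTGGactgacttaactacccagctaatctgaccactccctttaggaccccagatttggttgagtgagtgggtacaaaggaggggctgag

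Both chain genes held the Y box CTGATTGG, at bases -51 to -44 from the RefSeq start in H2-Aa and -62 to -55 in H2-Eb1. Of 32851 promoters in the reference table, 3.16% held that Y box within the same 150 bases. H2-DMb1 and H2-DMb2 each held its core ATTGG, which lies inside the Y box and was in 24.5% of promoters. The X1 box, searched with any base allowed at its variable positions, was in H2-DMb1 (CCTAGTAACTGATG) at -98 to -85 and in 0.0396% of promoters. A looser form, the last 10 letters of the same motif, was in H2-Eb1 at -91 to -82 and in H2-DMb1, and in 1.45% of promoters. The X2 box was searched only as TGNGTCA. That form was in 8.3% of promoters and in 1 of the 2 listed promoters of H2-DMa, at -86 to -80. None of the 4 windows shown held it. The H2-Aa window holds tgacgtca, which this search string cannot match, so the result does not show that it lacks an X2 box. The other H2-DMa promoter held none of these letters. A match is a run of letters and not a bound site, and a window without a match says nothing about binding.

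Class II RNA was held by few cells. Of small intestine cells, 78.0% had no UMI of summed class II (4281 of 5490), and in the colon 76.3% (5759 of 7549). The top 1% of cells by these genes (54 and 75 cells) held 46.1% of the UMIs in the small intestine, against 39.5% in the colon, and the top 10% held 92.0% and 89.6%. Cells with 50 or more such UMIs numbered 44 in the small intestine, against 49 in the colon, with at most 218 and 177 UMIs in a cell. A single UMI was seen in 576 small intestine cells and 736 colon cells, which together with empty cells were the large majority. Because few cells carry most of the UMIs, the intervals, which treat each UMI as an independent draw, are too narrow for a difference between pools of cells.

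The members were seen together in the same cells. All 4 of Cd74, H2-Aa, H2-Ab1 and H2-Eb1 had a UMI in 128 small intestine cells (2.33%) and 186 colon cells (2.46%), and those cells held 62.6% and 52.3% of the summed class II UMIs. Over the 6 pairs of these genes, the cells with both were a median of 4.79 times the number given by independence within 10 bins of UMI total in the small intestine (3.63 to 7.31) and 3.12 times in the colon (2.58 to 4.01). In the small intestine the pair seen together most often relative to that number was H2-Aa with H2-Eb1, in 159 cells against 21.7 given by independence. In the colon the same pair was in 252 cells against 62.8. Pearson's r of log values over cells, a description over cells of 1 library that share its depth and free RNA, was 0.58 to 0.68 in the small intestine (n = 5490 cells) and 0.49 to 0.67 in the colon (n = 7549 cells). Within the LTi-like clusters described below, the median ratio was 2.54 in the small intestine, against 1.36 in the colon. The more often genes are seen, the lower this ratio can be at most, and colon LTi-like cells were deeper (median 2974 against 2126 UMIs). These ratios therefore do not compare the tissues. The median r in the same cells was 0.63 in the small intestine, against 0.51 in the colon.

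The H2-DM genes followed the chains unequally. H2-DMb2 was seen in 12 small intestine cells and 21 colon cells, and 12 and 18 of these also had Cd74. Summed class II was at 32055 CPM in the 12 small intestine cells with H2-DMb2 and 533 CPM in the rest, and at 15174 CPM in the 21 colon cells and 546 CPM in the rest. With H2-DMb1 it was at 8691 CPM in 44 small intestine cells and 503 CPM in the rest, and at 8696 CPM in 67 colon cells and 522 CPM in the rest. H2-DMa was spread more widely, in 281 small intestine cells and 403 colon cells, and the ratio of summed class II between cells with and without it was 6.01 (5.74 to 6.30) in the small intestine and 4.62 (4.45 to 4.80) in the colon. Ciita, in 77 and 43 cells, gave ratios of 1.11 (0.943 to 1.30) and 2.50 (2.20 to 2.82).

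**Figure D2:**
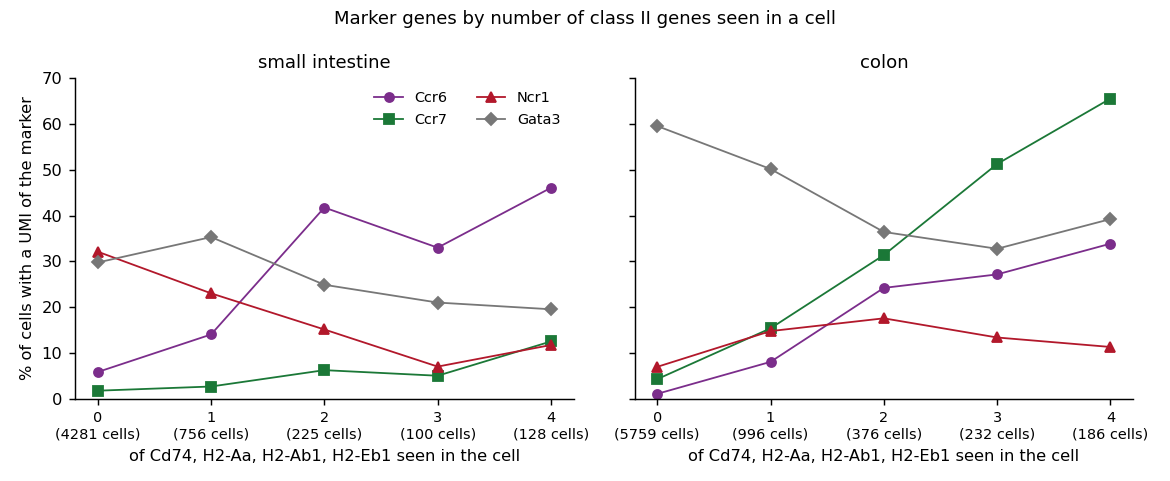
Percent of cells with a UMI of Ccr6, Ccr7, Ncr1 and Gata3 by the number of Cd74, H2-Aa, H2-Ab1 and H2-Eb1 seen in the cell, in the small intestine (left) and the colon (right). Cells with all 4 had a Ccr6 UMI in 46.1% and 33.9% of cases and a Ccr7 UMI in 12.5% and 65.6%; their median UMI total was 2462 in the small intestine, against 3749 in the colon.

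By cluster, class II lay in the LTi-like ILC3 clusters of both tissues. Together they held 1693 small intestine cells at 1935 CPM of summed class II (1891 to 1980), with 79.3% of the library's class II UMIs. In the colon they held 1329 cells at 2327 CPM (2285 to 2368), with 87.0%. Most of the small intestine cells were in cluster 7 (1671 cells, led by Ptges, Ccr6 and Hmgn3) and most of the colon cells in cluster 3 (1243 cells, led by Ccr7, Cd4 and Vegfa), so the class rests on different clusters in the 2 tissues. After thinning to 1000 UMIs, 8.03% of small intestine LTi-like cells (136 cells, 6.78 to 9.43%) and 12.0% of colon ones (159 cells, 10.3 to 13.8%) had a UMI of at least 2 of H2-Aa, H2-Ab1 and H2-Eb1. Before thinning these shares were 12.8% and 30.2%. In the T cell-like cluster, which should lack these genes, they were 0 of 258 cells and 0 of 1164 cells; taking 3 cells as the limit that a count of 0 allows, the share could be up to 1.16% and 0.258%. Before thinning 0 and 1 of these cells had them. Cells of any cluster with a Cd3e or Trdc UMI were not free of them. After thinning 4 of 597 such small intestine cells (0.670%) and 21 of 1799 such colon cells (1.17%) had them, and before thinning 8 and 86 cells. Those colon cells held 21.9% of the library's summed class II UMIs, at 548 CPM, and the small intestine ones 3.42%, at 192 CPM. The median T cell-like cell had 2439.5 and 2250.5 UMIs and the median LTi-like cell 2126 and 2974 UMIs.

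Class II was lower in the other ILC classes. NCR+ ILC3-like cells were at 149 CPM in the small intestine (1280 cells, 137 to 162), or 101 CPM without 1 cell of 178 UMIs, and at 357 CPM in the colon (21 cells, 212 to 565), or 167 CPM without 1 cell of 10 UMIs. ILC2-like cells were at 131 CPM in the small intestine (913 cells, 119 to 145) and 54.9 CPM in the colon (4194 cells, 50.7 to 59.2). ILC1/NK-like cells were at 109 CPM in the small intestine (92 cells, 70.5 to 161) and 267 CPM in the colon (681 cells, 244 to 293). T cell-like cells were at 33.3 CPM (20.9 to 50.5) and 54.7 CPM (46.5 to 63.8). Free RNA, profiled in barcodes with 10 to 50 UMIs, was estimated to give 30.7 CPM in small intestine cells and 41.4 CPM in colon cells. The interval of the small intestine T cell-like level held this background, while the colon T cell-like and ILC2-like levels lay somewhat above it. An unnamed small intestine cluster led by Slc6a20a, Ccr9 and Ncr1 (cluster 11, 1094 cells) was at 32.0 CPM (26.0 to 39.1), with an interval that held the background too. A second unnamed cluster, led by Gzma and Ccl5 (cluster 10), was at 658 CPM in the small intestine (147 cells) and 83.9 CPM in the colon (129 cells), but 1 small intestine cell held 218 of its 255 UMIs, and the other 146 cells were at 97.6 CPM (68.8 to 135). Cd3e and Trdc were at 947 and 1597 CPM in its small intestine cells and at 464 and 1079 CPM in its colon cells. In the T cell-like cluster they were at 939 and 1936 CPM in the small intestine and at 777 and 2017 CPM in the colon.

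Levels of the smaller classes depended on the clustering. Colon NCR+ ILC3-like cells numbered 401 at resolution 2, at 653 CPM (605 to 704), and 497 with each library clustered on its own, at 586 CPM (546 to 627), against the 21 cells at 357 CPM above. Small intestine ILC1/NK-like cells were at 1044 CPM (90 cells) when the library was clustered on its own, with the cell of 218 UMIs among them, and at 108 CPM without it. Small intestine T cell-like cells were at 112 CPM at resolution 2 and 116 CPM when clustered on their own, with 58 of the UMIs in 1 cell, and at 33.0 and 33.3 CPM without it. In all 3 clusterings the LTi-like class was at 1618 CPM or more in the small intestine and at 2327 CPM or more in the colon. With the small intestine clustered on its own, that class included a cluster of 843 cells at 199 CPM of summed class II. Ccr6 was at 34.4 CPM and Ncr1 at 119 CPM in that cluster, so its LTi-like name is uncertain.

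Plasma cell-like cells were at 2781 and 3479.8 CPM in 13 and 19 cells. Most of this was Cd74, with 496 of 558 UMIs in the small intestine and 391 of 453 in the colon. H2-Aa was lower there than in LTi-like cells, at 29.9 and 84.5 CPM, against 359 and 470 CPM in LTi-like cells. H2-Eb1 was lower in the small intestine, at 79.7 CPM (45.6 to 129) against 166 CPM (153 to 179). In the colon H2-Eb1 was at 154 CPM (93.8 to 237) against 214 CPM (202 to 227), with intervals that overlapped. H2-Ab1 was closest to LTi-like cells, at 199 and 238 CPM, against 226 and 260 CPM, with intervals that overlapped in both tissues. Cells with at least 50 antibody UMIs (12 and 10 cells) held 6.11% of summed class II UMIs in the small intestine, against 3.43% in the colon.

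**Figure D3:**
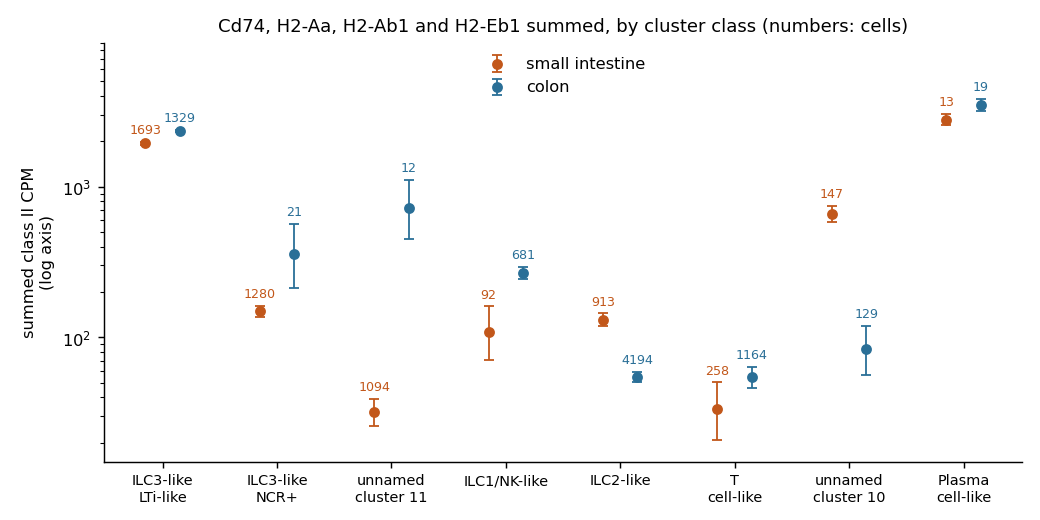
Summed class II in CPM (log axis) by cluster class in the small intestine (orange, left) and the colon (blue), with 95% counting intervals and the number of cells above each point. LTi-like ILC3s are at 1935 and 2327, and in this clustering the named ILC classes other than LTi-like are at 357 or less. Colon NCR+ cells are at 586 to 653 in the other clusterings. The plasma cell-like points are mostly Cd74.

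Clustering at a finer resolution showed that the LTi-like cells were themselves unequal. At resolution 2, where clusters are numbered anew, cluster 11 had 310 small intestine cells at 6139 CPM (5962 to 6320), which held 49.2% of the library's summed class II UMIs, and 78 colon cells at 7407 CPM (7065 to 7762), which held 12.6%. A larger LTi-like cluster of 1286 small intestine cells (cluster 20) was at 470.2 CPM and held 14.5%. Ccr6 was at 107 CPM and Ncr1 at 65.5 CPM in those cells, against 259 and 40.5 CPM in the small intestine cells of cluster 11. In the colon 603 cells of cluster 10 were at 2559 CPM and 390 cells of cluster 16 at 1994 CPM, which had a median of 5586 UMIs per cell. Cluster 16 had Gata3, Trdc and Cd3e at 288, 272 and 112 CPM in the colon, against 80.5, 10.1 and 8.44 CPM in colon cluster 10. Doublets were not separated from such deep cells as those of cluster 16. Leaving out the cells with the highest doublet scores (241 and 456 cells) removed 4.78% of summed class II UMIs in the small intestine, against 7.66% in the colon.

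Cells with a UMI of Ccr6, the chemokine receptor that marks LTi-like ILC3s, had several times the class II of cells without one in both tissues. Summed class II was at 2527 CPM in 541 Ccr6+ and 419 CPM in 4949 Ccr6- cells of the small intestine, a ratio of 6.04 (5.79 to 6.30). In the colon it was at 2519.5 CPM in 357 Ccr6+ and 472 CPM in 7192 Ccr6- cells, a ratio of 5.34 (5.14 to 5.53). The excess was present in both tissues, and the difference between its sizes was not tested; colon Ccr6+ cells were deeper (median 3443 and 2577 UMIs in Ccr6+ and Ccr6- cells) and small intestine ones were not (2366 and 2603). With cells thinned to 1000 UMIs the colon log2 ratio was 2.83, against 2.42 by totals. At that depth at least 2 of the 3 chain genes were seen in 11.6% of Ccr6+ and 1.62% of Ccr6- cells of the small intestine, and in 16.0% and 1.53% of those of the colon. The markers of other antigen-presenting cells summed to 2.87 and 5.04 CPM in Ccr6+ and Ccr6- cells of the small intestine and to 6.12 and 3.86 CPM in those of the colon, and their part in the contrast was not tested.

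Among the members, 6 of 8 were at least 2-fold higher in small intestine Ccr6+ cells, where 5.82% of 10837 genes were, and 7 of 8 in colon Ccr6+ cells, where 8.15% of 11221 genes were. The invariant chain Cd74 was at 1545 CPM in Ccr6+ and 265 CPM in Ccr6- cells of the small intestine, and at 1545 and 281.5 CPM in those of the colon. H2-Eb1 had the highest ratio of the 4 summed genes in the small intestine, 7.67 (6.62 to 8.89), and H2-Aa in the colon, 5.65 (5.20 to 6.14). H2-DMa, the alpha chain of H2-DM, was not past the 2-fold threshold in either tissue, at ratios of 1.76 (1.26 to 2.42) and 1.32 (0.932 to 1.82). H2-DMb1 in Ccr6+ cells was at 3.99 times its level in Ccr6- cells of the small intestine (15 and 37 UMIs) and 3.01 times in the colon (14 and 59 UMIs). Ciita had 4 and 76 UMIs in Ccr6+ and Ccr6- cells of the small intestine, a ratio of 0.517 (0.137 to 1.38). In the colon it had 7 and 39 UMIs, a ratio of 2.27 (0.859 to 5.14), so its call there rests on an interval that holds 1.

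Ccr7, the receptor that guides cells to lymph nodes, also went with class II in both tissues, with a higher ratio in the colon, a difference that was not tested. Summed class II was at 2977 CPM in 129 Ccr7+ and 554 CPM in 5361 Ccr7- cells of the small intestine, a ratio of 5.37 (5.04 to 5.72). Of the 1089 UMIs in these 129 cells, 391 were in 2 cells, and without those 2 the ratio was 3.54. In the colon it was at 2540.4 CPM in 757 Ccr7+ and 308 CPM in 6792 Ccr7- cells, a ratio of 8.24 (7.96 to 8.52). The small intestine Ccr7+ cells also had more T cell RNA, with Cd3e and Trdc at 990 CPM in Ccr7+ and 192 CPM in Ccr7- cells, while in the colon these were at 282 and 490 CPM. Of the small intestine Ccr7+ cells, 49.6% were LTi-like, with 82.1% of their summed class II UMIs. Another 34.9% were in the unnamed cluster 10, with 1.10% of the UMIs, and 5 NCR+ ILC3-like cells held 16.4%. Of the colon Ccr7+ cells, 73.3% were LTi-like, with 97.7% of the UMIs, and 3.57% were in cluster 10. Without cells holding a Cd3e or Trdc UMI, the small intestine log2 ratio was 2.96, against 2.42. The markers of other antigen-presenting cells summed to 2.73 and 4.89 CPM in Ccr7+ and Ccr7- cells of the small intestine and to 5.42 and 3.80 CPM in those of the colon. Colon Ccr7+ cells were deeper (median 3096 and 2567 UMIs), and after thinning 13.6% of Ccr7+ and 0.942% of Ccr7- colon cells had at least 2 of the 3 chain genes, with 13.2% and 2.35% in the small intestine.

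Of the members, 7 of 8 were at least 2-fold higher in small intestine Ccr7+ cells, against 7.69% of genes, and 6 of 8 in colon Ccr7+ cells, against 6.59%. No member was at least 2-fold lower, against 16.0% and 5.08% of genes. H2-Aa was at 645 CPM in Ccr7+ and 92.4 CPM in Ccr7- cells of the small intestine and at 530 CPM in Ccr7+ and 50.4 CPM in Ccr7- cells of the colon, ratios of 6.98 (6.05 to 8.02) and 10.5 (9.71 to 11.4). H2-Eb1 was at 303.5 and 43.2 CPM in those of the small intestine and at 266 and 22.7 CPM in those of the colon, ratios of 7.03 (5.70 to 8.62) and 11.7 (10.4 to 13.2). H2-DMb2 had most of its colon UMIs in Ccr7+ cells, with 29 UMIs in Ccr7+ and 6 UMIs in Ccr7- cells, a ratio of 29.6 (12.1 to 87.1). These UMIs came from 21 cells with a median of 4383 UMIs. At resolution 2, 25 of the 35 were in the deep cluster 16, where Ccr7 was at 404 CPM. Only 3 were in cluster 10, where Ccr7 was higher, at 928 CPM. The small intestine counts of H2-DMb2 were 2 and 18 UMIs, a ratio of 4.47 (0.503 to 18.7). The near-identical H2-DMb1 had ratios of 4.28 (1.33 to 10.7) and 4.51 (2.74 to 7.35). Ciita again did not reach the threshold, with ratios of 0.509 (0.0127 to 2.92) from 1 and 79 UMIs and 1.49 (0.631 to 3.14) from 9 and 37 UMIs.

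**Figure D4:**
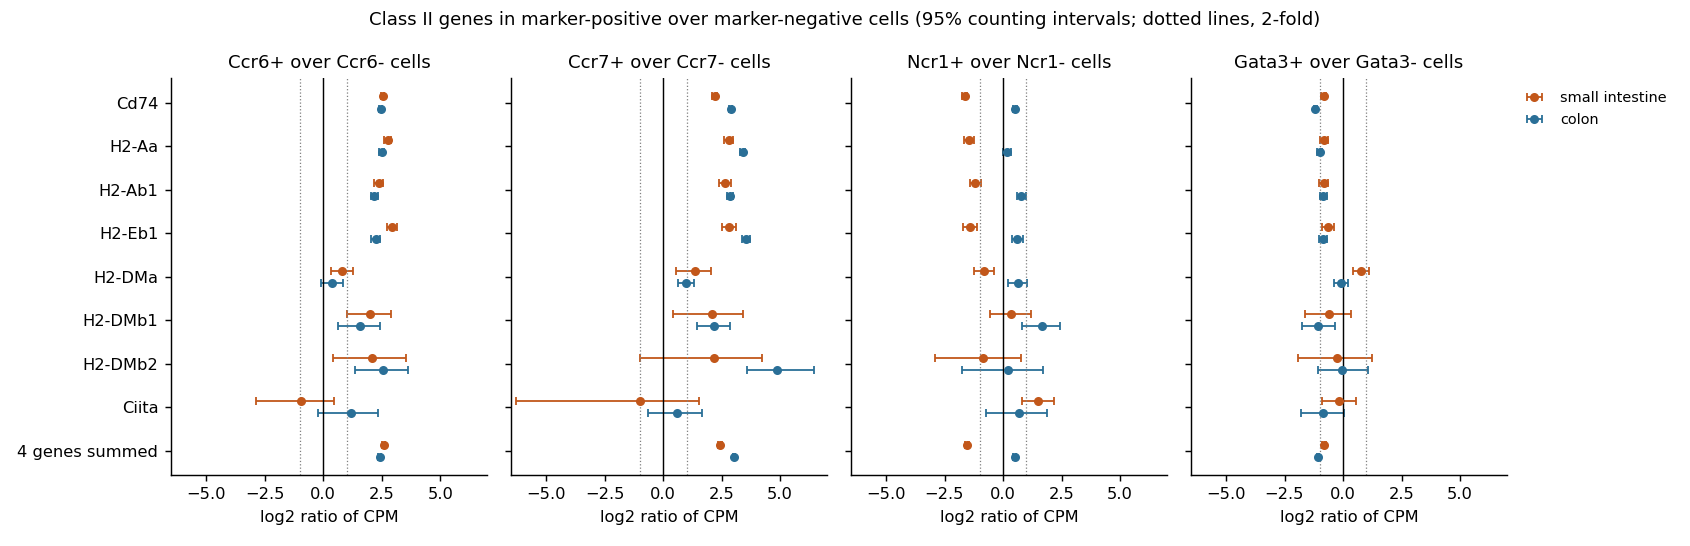
Log2 ratio of CPM in marker-positive over marker-negative cells for each class II gene and for the 4 genes summed, in the small intestine (orange, upper of each pair) and the colon (blue), with 95% counting intervals. Dotted lines mark 2-fold. The chain genes and Cd74 lie between 2.19 and 3.55 for Ccr6 and Ccr7, and the summed log2 ratio for Ncr1 is -1.52 in the small intestine, against 0.49 in the colon.

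The share of class II UMIs held by cells with each receptor differed between the libraries. Small intestine Ccr6+Ccr7- cells (511 cells, 2429.8 CPM) held 34.4% of summed class II UMIs, Ccr6-Ccr7+ cells (99 cells, 2662 CPM) held 8.12%, and Ccr6+Ccr7+ cells (30 cells, 4042 CPM) held 3.65%. Of the 751 UMIs in the small intestine Ccr6-Ccr7+ cells, 52.1% were in 2 cells, and the other cells were at 1321 CPM. For the 338 UMIs of the small intestine Ccr6+Ccr7+ cells, 37.9% were in 2 cells, and the other cells were at 2682 CPM. In the colon, Ccr6-Ccr7+ cells (576 cells, 2424 CPM) held 38.3%, Ccr6+Ccr7+ cells (181 cells, 2810.3 CPM) held 19.1%, and Ccr6+Ccr7- cells (176 cells, 2123 CPM) held 10.6%. Cells with neither receptor seen were at 371 CPM in the small intestine (4850 cells) and 241 CPM in the colon (6616 cells), and still held 53.8% and 32.1% of the UMIs. A cell with no UMI of a receptor can express it, so these shares are of cells in which it was seen or not seen.

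Within the LTi-like clusters the receptor contrasts were smaller. Ccr6+ cells were at 2953 CPM and Ccr6- cells at 1480.1 CPM in the small intestine, a ratio with an interval of 1.91 to 2.09, and at 2562 and 2224 CPM in the colon, a ratio of 1.15 (1.11 to 1.20). Ccr7+ LTi-like cells were at 5281 CPM and Ccr7- ones at 1779 CPM in the small intestine, a ratio of 2.97 (2.77 to 3.18), which was 2.31 (2.13 to 2.50) without 1 cell of 213 UMIs, and at 3105 and 1599 CPM in the colon, a ratio of 1.94 (1.87 to 2.02). The clusters were formed with Ccr6 and Ccr7 among the genes that could be used, so these are descriptions of the clusters.

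Ncr1, which encodes the receptor NKp46 of NCR+ ILC3s and ILC1/NK cells, went with class II in opposite directions in the tissues. In the small intestine summed class II was at 269 CPM in 1605 Ncr1+ and 771 CPM in 3885 Ncr1- cells, a ratio of 0.348 (0.328 to 0.369), or 0.241 without the 2 Ncr1+ cells that held 396 of their 1274 UMIs. In the colon it was at 839 CPM in 665 Ncr1+ and 598 CPM in 6884 Ncr1- cells, a ratio of 1.40 (1.34 to 1.47). The difference between the tissues was not tested. Of the 8 members, 4 (Cd74, H2-Aa, H2-Ab1 and H2-Eb1) were at least 2-fold lower in small intestine Ncr1+ cells, at ratios of 0.322 to 0.442, where 5.68% of genes were. Ciita was the 1 member at least 2-fold higher, against 1.89% of genes, at 9.49 CPM in Ncr1+ and 3.39 CPM in Ncr1- cells (45 and 35 UMIs, ratio 2.80, 1.76 to 4.49). In the colon 1 of 8 members was at least 2-fold higher, H2-DMb1 at 8.52 CPM in Ncr1+ and 2.69 CPM in Ncr1- cells (ratio 3.17, 1.77 to 5.44), against 4.37% of genes, and 0 were lower, against 7.48%.

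The Ncr1+ cells fell mostly in different clusters in each tissue. In the small intestine 44.0% of them were in cluster 11 and 40% in the NCR+ ILC3-like class, and 6.60% in the LTi-like class held 33.9% of their summed class II UMIs. A further 17.3% was in 8 cells of cluster 10, nearly all of it in the 1 cell of 218 UMIs, and 8.71% in 2 plasma cell-like cells. In the colon 60.2% were ILC1/NK-like, and 29.0% in the LTi-like class held 80.5%. The colon make-up changed with the clustering: 42.4% of Ncr1+ cells were ILC1/NK-like, 26.3% NCR+ ILC3-like and 18.2% LTi-like at resolution 2, and 39.8%, 35.3% and 16.5% with each library clustered on its own, with 69.9% and 68.9% of their class II UMIs in the LTi-like class. Within the LTi-like class Ncr1+ cells were lower in both tissues, at 1669.8 CPM against 1954 CPM in Ncr1- cells of the small intestine (ratio 0.854, 0.773 to 0.942) and 1685 CPM against 2460.1 CPM in those of the colon (ratio 0.685, 0.649 to 0.723). Within the small intestine NCR+ ILC3-like class 642 Ncr1+ cells were at 199.9 CPM and 638 Ncr1- cells at 92.8 CPM, but without 1 Ncr1+ cell of 178 UMIs the ratio was 1.17, with an interval that held 1 (0.951 to 1.45).

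Gata3, the transcription factor of ILC2s, went with lower class II in both tissues. Summed class II was at 408 CPM in 1643 Gata3+ and 717 CPM in 3847 Gata3- cells of the small intestine, a ratio of 0.569 (0.541 to 0.597), and at 432 CPM in 4218 Gata3+ and 913 CPM in 3331 Gata3- cells of the colon, a ratio of 0.474 (0.458 to 0.490). No member passed 2-fold in the small intestine, where 2.74% of genes were at least 2-fold higher and 3.85% at least 2-fold lower. In the colon 3 of 8 were at least 2-fold lower (Cd74, H2-Aa and H2-DMb1), against 6.4% of genes, and 0 were higher, against 2.89%. H2-DMa differed from the chains, at 27.8 CPM in Gata3+ and 16.2 CPM in Gata3- cells of the small intestine, a ratio of 1.72 (1.36 to 2.17). Within the LTi-like class the Gata3 ratio was 1.06 (0.999 to 1.12) in the small intestine, or 0.914 (0.861 to 0.971) without 1 cell of 213 UMIs, against 0.906 (0.873 to 0.939) in the colon. Within the ILC2-like class, which held 47.5% and 79.5% of the Gata3+ cells, the ratio was above 1, at 1.56 (1.10 to 2.26) in the small intestine (368 and 36 UMIs), against 1.25 (lower bound just above 1, upper 1.57) in the colon (557 and 94 UMIs), and without the 1 Gata3+ cell with the most UMIs the colon interval held 1 (0.939 to 1.47).

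Combining the 4 markers, the highest level in the small intestine among combinations with at least 50 cells was in Ccr6+Ccr7-Ncr1-Gata3- cells (362 cells, 2865 CPM, 26.9% of UMIs). In the colon it was in Ccr6+Ccr7+Ncr1-Gata3+ cells (58 cells, 3019 CPM), with Ccr6+Ccr7+Ncr1-Gata3- cells (102 cells, 2828 CPM) and Ccr6-Ccr7+Ncr1-Gata3- cells (293 cells, 2817 CPM) at levels whose intervals overlapped it. The 58 cells were deep, with a median of 5692.5 UMIs, against 3162.5 in the 102 cells and 2671 in the 293 cells. Doublets were not separated from them. The lowest were Ncr1+ cells without the other markers in the small intestine (1185 cells, 164 CPM, with 218 of 553 UMIs in 1 cell), beside Ncr1+Gata3+ cells at 166 CPM, and Gata3+ cells without the others in the colon (3678 cells, 131 CPM).

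H2-DMa, H2-DMb1 and Ciita had smaller shares of their UMIs in the LTi-like class than H2-Aa. H2-Aa had 85.3% of its small intestine UMIs and 92.8% of its colon UMIs there. For H2-DMb2 it was 75% and 91.4%, for H2-DMb1 44.2% and 60.3%, and for H2-DMa 34.3% and 39.5%. H2-DMa was also in ILC2-like cells, at 36.4 CPM in the small intestine (29.9 to 43.7) and 15.9 CPM in the colon (13.7 to 18.4), with 37.0% and 43.4% of its UMIs. Ciita had 20% of its small intestine UMIs in the LTi-like class (16 of 80 UMIs, 4.22 CPM, 2.41 to 6.85) and 46.2% in cluster 11 (37 UMIs, 12.2 CPM, 8.60 to 16.8), where summed class II was near the free RNA level. In the colon 19 of its 46 UMIs were in the LTi-like class (3.66 CPM, 2.20 to 5.71) and 19 in ILC2-like cells (1.60 CPM, 0.964 to 2.50). Ciita is a low transcript here, with at most 2 UMIs in a cell.

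**Figure D5:**
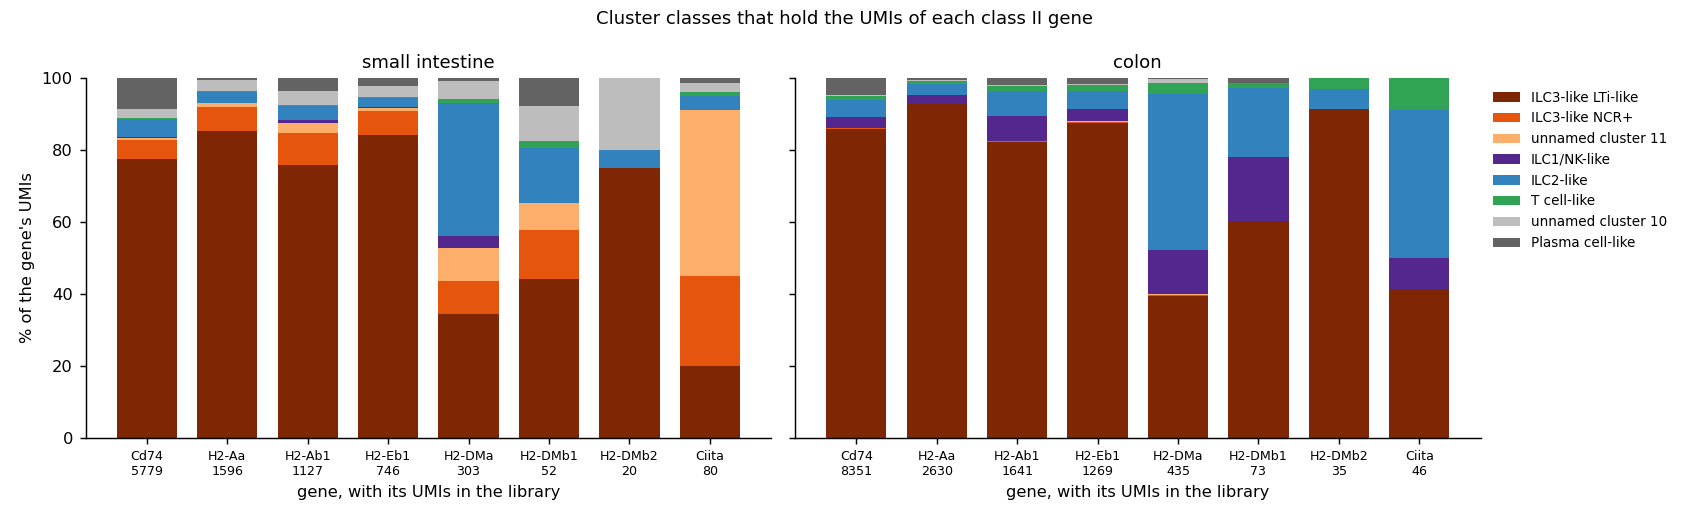
Percent of each gene's UMIs held by each cluster class in the small intestine (left) and the colon (right), with the gene's UMI count under its name. The LTi-like class holds most of Cd74 and the chain genes in both tissues, while cluster 11 holds 46.2% of Ciita in the small intestine.

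Cells with a UMI of at least 2 of the 3 chain genes, the cells in which class II was most clearly seen, numbered 248 of the small intestine (4.52%) and 448 of the colon (5.93%). After thinning to 1000 UMIs the shares were 2.60% and 2.21%, a difference of 0.393 points (-0.148 to 0.950). Compared with cells with none of the chains (4703 and 6329 cells), Cd74, which was not used to choose the cells, was at 5320.5 CPM against 64.9 CPM in the small intestine and at 2555 CPM against 72.4 CPM in the colon. H2-DMb2 had 19 UMIs in these cells and 1 UMI in cells with none in the small intestine, and 32 and 3 UMIs in the colon. Ciita had 2 UMIs against 73 in the small intestine (2.54 and 5.71 CPM, ratio 0.445, 0.0529 to 1.67) and 8 against 30 in the colon (3.65 and 1.71 CPM, ratio 2.13, 0.844 to 4.76).

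These cells had more RNA of the LTi genes Cd4 and Nrp1, while Cxcr5, Lta and Tnfsf11 of the same marker list were not compared. Cd4 was at 59.8 CPM in class II cells against 11.7 CPM in cells with no chain in the small intestine and at 156 against 15.3 CPM in the colon, and Nrp1 at 162 against 40.3 CPM and 171 against 22.5 CPM. Il22, the ILC3 cytokine, was at 6201 against 3795 CPM in the small intestine and 7212 against 885 CPM in the colon. Of the 16 defining markers of other antigen-presenting cells, 4 had a UMI in the small intestine class II cells and 8 in the colon ones, at a summed 54.7 CPM against 1.33 CPM and 21.0 against 1.88 CPM. Cd79a, which plasma cells also carry, made up 49.6 and 14.6 CPM of these. Clec9a, Siglech, Cd209a, Ccl22, Pax5 and Csf1r were at 0. Several other genes on the dendritic cell lists were higher in class II cells. Zbtb46 was at 56.0 against 21.0 CPM in the small intestine and 55.6 against 16.7 CPM in the colon, and Flt3 with 3 against 1 UMIs and 5 against 1 UMIs. Fscn1 had 3 against 7 UMIs in the small intestine (ratio 6.97, 1.16 to 30.5) and 21 against 6 UMIs in the colon (ratio 28.0, 10.9 to 84.7). Cst3 was at ratios of 1.36 and 1.35. Ccl17 was at a ratio of 0.625 (0.0738 to 2.37) in the small intestine, against 3.69 (1.99 to 6.60) in the colon, and Itgax had no UMI in class II cells. The part of these genes in the result was not tested. Antibody genes were at 93578 CPM against 1608 CPM in the small intestine, and at 358 against 328 CPM without the cells of at least 50 antibody UMIs. In the colon they were at 23109 CPM against 104 CPM, and at 106 against 104 CPM without those cells.

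Other genes of the class II pathway, outside the 8, were counted by the same rule. Of 28 listed symbols (lysosomal proteases, H2-O, RFX, NF-Y and interferon genes), 22 had a row. Between small intestine and colon 4 of 22 were at least 2-fold higher, against 8.92% of genes, and 1 lower, against 5.42%, with a median log2 ratio of 0.40 against 0.20 for all genes. The protease Ctsh was at 93.9 CPM in the small intestine, against 21.7 CPM in the colon, Irf8 at 67.8 and 31.3 CPM and March8, a ubiquitin ligase, at 11.1 and 4.66 CPM. H2-Eb2 had 19 and 14 UMIs, with an interval that held 1, and the lower gene was Irf4, at 3.85 and 8.24 CPM. H2-Oa, the alpha chain of H2-O, which restrains H2-DM, was at 48.7 CPM in the small intestine, against 81.6 CPM in the colon, and Rfx5, the RFX subunit, at 12.7 and 9.67 CPM.

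In Ccr6+ cells the protease Ctss, which trims the invariant chain, was at 292 CPM against 117 CPM in Ccr6- cells of the small intestine and 152 against 66.6 CPM in the colon, and 2 of 20 and 4 of 21 pathway genes tested were at least 2-fold higher (against 5.82% and 8.15% of genes), with 2 lower in each (against 7.59% and 8.35%). The median log2 ratio was 0.11 in the small intestine, against 0.22 in the colon, beside 0.07 for all genes in both. In Ccr7+ cells 2 of 20 and 3 of 21 were higher, against 7.69% and 6.59% of genes, and 1 and 0 lower, against 16.0% and 5.08%. Rfx5 was at 16.5 and 12.3 CPM in Ccr6+ and Ccr6- cells of the small intestine and at 8.57 and 9.76 CPM in those of the colon, with both intervals holding 1.

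Of 9 co-stimulatory genes listed, 6 (small intestine) and 7 (colon) had the 20 UMIs needed. In Ccr6+ cells 2 and 3 of these were at least 2-fold higher, against 5.82% and 8.15% of genes, and 1 and 3 lower, against 7.59% and 8.35%. Tnfsf4, which encodes OX40 ligand, was at 12.2 CPM in Ccr6+ and 2.05 CPM in Ccr6- cells of the small intestine (17 and 28 UMIs) and at 20.8 and 3.67 CPM in those of the colon (34 and 76 UMIs). Cd40 was at 11.5 and 0.877 CPM in Ccr6+ and Ccr6- cells of the small intestine and at 8.57 and 2.27 CPM in those of the colon. Both genes were at least 2-fold higher in Ccr7+ cells too, Tnfsf4 at 60.2 and 1.56 CPM in Ccr7+ and Ccr7- cells of the small intestine and at 18.8 and 2.66 CPM in those of the colon. Cd274, which encodes PD-L1, was lower in Ccr6+ cells, at 8.62 and 18.7 CPM in Ccr6+ and Ccr6- cells of the small intestine and 10.4 and 22.4 CPM in those of the colon. Of the class I list (H2-K1, H2-D1, B2m, Tap1 and others), 0 of 10 passed 2-fold between the tissues, and in the Ccr6 and Ccr7 contrasts of both tissues Nlrc5 in small intestine Ccr6+ cells was the 1 gene that did, being lower there.

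Among 8771 genes, those whose log values went most closely with summed class II over cells in both libraries were Cd83 (r = 0.35 in the small intestine, against 0.45 in the colon, n = 5490 and 7549 cells), Ccr6 (0.31 and 0.35), Hmgn3 (0.31 and 0.47), Mef2c (0.30 and 0.34) and Vegfa (0.29 and 0.40), followed by Marcksl1, Bst2, Cd7, Tgm2 and Piwil4. Cd83 encodes a surface protein of mature dendritic cells that is known to hold class II at the surface. In the colon alone the closest gene was Il22 (r = 0.54), which had r = 0.11 in the small intestine, where 76.1% of cells had an Il22 UMI against 38.0% in the colon. Ccr7 had r = 0.12 in the small intestine, against 0.44 in the colon, and Gata3 -0.04 and -0.22. These values describe cells of 1 library each and share its depth.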

How the data were processed

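Libraries were made with the 10x Chromium 3′ v2 kit, per the labels' protocols. Cell Ranger 3.0.2 and the mm10 genome were used, per the submitters' processing notes. The deposited files hold raw UMI counts, in unfiltered matrices of 31053 genes and 737280 barcodes per library and in a table of 5490 and 7549 cells that the authors chose by a rule not given in the sources used here. At the cells of the table, 0 values differed between these sources. The table was used as deposited, with 15080081 UMIs in the small intestine cells and 22332691 in the colon cells.

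UMIs were summed over cells and divided by all their UMIs (CPM). Intervals are exact Poisson (levels), exact conditional binomial (ratios) and Clopper-Pearson (shares), at 95%. With 1 library per tissue, a gene was called at a ratio of at least 2, or at most 0.5, among genes with at least 20 UMIs. A cell was positive for a marker at 1 UMI or more. Co-detection was set against independence within 10 bins of UMI total. Thinning drew 1000 UMIs per cell and left out 0 cells. Clusters used scanpy 1.11.5 (2000 variable genes without class II genes, 30 components, 15 neighbours, Leiden resolution 1, no integration); a cluster took the name of the class with the highest marker score among those with at least 3 detected markers, and stayed unnamed where its 10 leading genes held more markers of another class. An ILC3-like cluster was called LTi-like or NCR+ by whichever marker score was higher, with no minimum score. Scrublet's automatic threshold marked 0 and 1 cells, so it had not worked, and doublets stay in the main results. Ratios, intervals and co-detection were tested on simulated data, with UMIs drawn independently. Real class II UMIs were held by few cells, so that simulation cannot show how wide the intervals should be for pools of cells. The named genes were the 8 members, the fixed pathway, co-stimulation and class I lists, and the genes with the highest lower correlation of the 2 libraries among those seen in at least 1% of cells of each. Members and lists were chosen with earlier results of these data known. Alternatives covered the choice of cells, doublets, marker-bearing cells, single cells of many class II UMIs (chosen after seeing the data), free RNA, depth, scaling, thresholds and clustering. A further gene compared in class II cells is not reported here.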

Additional observations from a re-analysis of the deposited data

Results flagged for a closer look

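The Ncr1 contrast ran in opposite directions in the 2 tissues for summed class II, each with an interval that excluded a ratio of 1. On the log2 scale, Ncr1+ over Ncr1- cells gave -1.52 (small intestine) and 0.49 (colon) for summed class II. For Cd74 it gave -1.63 and 0.50, for H2-Ab1 -1.18 and 0.78, for H2-Eb1 -1.39 and 0.61, and for H2-DMa -0.81 and 0.64. H2-Aa gave -1.46 and 0.16, with a colon interval that held 0 (-0.016 to 0.34). The difference between the tissues was not tested. The clusters that the Ncr1+ cells came from, given in the report, differed between the tissues, and their part in the result was not tested.

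Class II was also seen in barcodes outside the table of cells that passed a minimum of 500 UMIs, 300 genes and at most 10% mitochondrial UMIs. Summed class II was at 1300.1 CPM in 1099 such barcodes of the small intestine and at 1340.9 CPM in 671 of the colon, against 613 and 622 CPM in the cells used and 573 and 502 CPM in free RNA. Antibody genes were at 6018 and 122 CPM there.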

How the results depend on the processing

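No paired analysis was possible because each tissue has 1 library and no value comes from a test. Values here are log2 ratios of summed class II unless stated, and the cause of each move was not tested. The main values were -0.02 between small intestine and colon, 2.59 (small intestine) and 2.42 (colon) for Ccr6, 2.42 and 3.04 for Ccr7, -1.52 and 0.49 for Ncr1, and -0.81 and -1.08 for Gata3. All barcodes of at least 500 UMIs gave 0.035 between tissues, 2.44 and 2.35 for Ccr6, 2.30 for small intestine Ccr7 and -1.15 for colon Gata3. Leaving out the cells with the highest doublet scores gave 2.65 and 2.63 for Ccr6, 2.52 and 3.27 for Ccr7, 0.63 for colon Ncr1 and a co-detection ratio of 3.57 in the colon, against 3.12. Leaving out cells with a marker of another antigen-presenting cell gave 2.71 and 2.51 for Ccr6, 2.53 and 3.17 for Ccr7, 0.57 for colon Ncr1 and -0.73 for small intestine Gata3. Subtracting free RNA gave 2.69 and 2.52 for Ccr6, 3.23 for colon Ccr7, -1.64 for small intestine Ncr1 and -1.16 for colon Gata3. Thinning to 1000 UMIs gave 0.37 between tissues, 2.83 for colon Ccr6, 2.20 and 3.20 for Ccr7, -1.94 and 0.62 for Ncr1, -1.44 for colon Gata3 and co-detection ratios of 8.30 and 7.05. It reversed H2-Aa (0.36) and H2-Eb1 (0.17) between tissues. A median-ratio size factor gave -0.22 between tissues, 2.52 and 2.33 for Ccr6 and -0.70 for small intestine Gata3. Totals without mitochondrial and ribosomal genes gave -0.17 between tissues, 2.33 for colon Ccr6, 2.98 for colon Ccr7, 0.38 for colon Ncr1, and -0.70 and -0.99 for Gata3. Splitting at 2 UMIs gave 2.67 for colon Ccr6, 3.06 and 3.42 for Ccr7, -1.95 and 0.20 for Ncr1, and -1.09 and -1.52 for Gata3. Of 3 alternatives chosen after seeing the data, leaving out cells with at least 50 antibody UMIs gave 2.72 and 2.48 for Ccr6, 3.13 for colon Ccr7 and -1.03 for colon Gata3. Leaving out cells with a Cd3e or Trdc UMI gave 0.040 between tissues, 2.45 and 2.34 for Ccr6, 2.96 for small intestine Ccr7, and -0.97 and -1.65 for Gata3. Leaving out the 1 cell with the most class II UMIs of each library gave -1.79 and 0.35 for Ncr1. The LTi-like share of colon class II UMIs, 87.0%, was 83.4% at Leiden resolution 2 and 83.1% with each library clustered on its own. In these alternatives the 4 marker contrasts kept their directions in both tissues. The fewest UMIs were behind H2-DMb2 (20 and 35), H2-DMb1 (52 and 73) and Ciita (80 and 46).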
